A study of Homo sapiens with 4 samples.

Results

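This account concerns the genes that encode histone and DNA modifying enzymes, 58 genes chosen by name, out of 25121 named genes with values on the arrays. The list holds 24 writers, 32 erasers and 2 readers of chromatin marks, and each gene was followed through all of its probes, 99 in total. Expression was measured on 4 Agilent one-colour arrays in the human prostate cancer lines PC3 and DU145, both of which grow without androgen. PC3-shC and DU145-shC cells carried a control shRNA against luciferase, and PC3-shESS2 and DU145-shESS2 cells carried an shRNA against ESS2, a nuclear protein studied here as a transcriptional coregulator. All cells were grown in RPMI1640 with 10% FBS. The labels and the study's xenograft methods describe the cells as transduced, whereas its cell culture methods describe PC3 cells transfected with shRNA plasmid and selected with puromycin. Whether the cells were pools or clones was not given in the sources used here. Each condition had 1 array, so within a line a difference has no replicate check.

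Writers place chemical groups on histones or DNA, erasers take them off, and readers bind the marked residues and recruit other proteins. Acetyl groups, placed by acetyltransferases and removed by histone deacetylases (HDACs) and some sirtuins, are found at active genes, while methyl groups have different associations by residue: H3K4 and H3K36 methylation with active genes, and H3K9 and H3K27 methylation with silenced ones. DNA methyltransferases (DNMTs) methylate cytosine in CpG dinucleotides and TET enzymes oxidise the methyl group. The study examined histone marks at single target genes. It also reported seeing no significant expression change for families of these enzymes, such as DNMTs and HDACs, in PC3-shESS2 cells. The question here was whether the mRNAs of the single enzymes that set or remove such marks differed between shESS2 and shC cells of both lines.

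Between 50.8% and 52.6% of spots other than controls were flagged as well above background on an array, and 0 were saturated. Levels are given as the log2 of the processed signal relative to the array's 75th percentile, so 0 is the 75th percentile, and a log2 ratio is the shESS2 level minus the shC level in the same line. A difference of 1 is 2-fold. Probes printed in 10 copies had a median spot-to-spot SD of the log2 ratio of 0.084 in PC3 and 0.0821 in DU145, which covers error within an array and not between cultures. ESS2 itself stood at -0.98 in PC3-shC, -2.44 in PC3-shESS2, -1.31 in DU145-shC and -3.66 in DU145-shESS2 cells, 2.74-fold lower in PC3-shESS2 and 5.09-fold lower in DU145-shESS2. The epithelial genes KRT8, KRT18 and CDH1 were well above background on all 4 arrays, and KLK3 was not above it on any. EPCAM was 6.11-fold lower in DU145-shESS2 than in DU145-shC cells, where KRT8, KRT18 and CDH1 had log2 ratios of 0.28, -0.03 and 0.00, and PECAM1 was 22.7-fold lower in PC3-shESS2 than in PC3-shC cells. Of the leukocyte markers, PTPRC lay between -2.96 and -2.14 and CD3E was not above background. The part of such differences in the values below was not tested, and in bulk RNA fewer cells with a transcript and less transcript per cell cannot be told apart.

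The promoters of these genes are shown first because CpG dinucleotides are the substrate of the DNMT and TET enzymes in the list, and because the members differed widely in how many they hold. RefSeq promoters (GRCh38.p14, 250 bases before to 50 bases after 1 start site per gene) were found for 54 of the 58 genes. The members held a median of 30 CpG, against 22 over 15843 protein-coding genes. A ratio of observed to expected CpG above 0.6 was found in 49 members (90.7%) and in 65.7% of all these promoters. The GC box GGGCGG, on either strand, was found in 35 members (64.8%) and in 58.5% of all promoters. The KDM7A, KMT2C and BRD3 promoters held the most CpG of the members, 56 each, and those of HDAC4 and DNMT3B the fewest, 3 each. Below are the promoters of KDM7A (chr7:140176934-140177233, minus strand), the only member past 2-fold in a knockdown, and of HDAC9 (chr7:18495499-18495798, plus strand) and KAT2A (chr17:42121318-42121617, minus strand), each of which was not above background in 1 of the lines. They hold 56, 5 and 18 CpG, which are printed in capitals.
KDM7A: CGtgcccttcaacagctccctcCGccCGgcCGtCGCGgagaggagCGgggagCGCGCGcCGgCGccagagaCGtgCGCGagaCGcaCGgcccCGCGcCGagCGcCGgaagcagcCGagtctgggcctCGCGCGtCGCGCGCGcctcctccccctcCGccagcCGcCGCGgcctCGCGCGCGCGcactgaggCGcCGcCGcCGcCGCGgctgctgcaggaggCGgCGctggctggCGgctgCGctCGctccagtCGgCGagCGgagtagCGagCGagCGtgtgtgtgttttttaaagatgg
HDAC9: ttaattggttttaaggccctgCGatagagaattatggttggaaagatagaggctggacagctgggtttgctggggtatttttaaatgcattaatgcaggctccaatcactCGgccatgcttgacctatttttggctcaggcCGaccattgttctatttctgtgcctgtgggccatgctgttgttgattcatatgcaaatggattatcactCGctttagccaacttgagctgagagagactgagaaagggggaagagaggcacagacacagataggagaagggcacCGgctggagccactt
KAT2A: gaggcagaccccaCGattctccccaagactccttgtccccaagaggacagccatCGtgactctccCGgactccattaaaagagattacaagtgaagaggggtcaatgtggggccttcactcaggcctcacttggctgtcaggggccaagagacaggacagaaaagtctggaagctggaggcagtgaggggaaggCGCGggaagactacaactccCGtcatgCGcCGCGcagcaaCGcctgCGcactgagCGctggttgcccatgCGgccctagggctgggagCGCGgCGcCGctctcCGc

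Few of the modifying enzymes differed by 2-fold between shESS2 and shC cells. In PC3, 56 of the 58 genes could be compared, 29 were higher and 27 lower in PC3-shESS2, and 1 of them, KDM7A, was past 2-fold, where 7.75% of 16764 genes were past 2-fold. In DU145, 55 could be compared, 32 were higher and 23 lower in DU145-shESS2, and 0 were past 2-fold, where 4.83% of 16842 genes were. Over all genes, 7429 were higher and 9322 lower in PC3-shESS2, and 7953 were higher and 8873 lower in DU145-shESS2. The median log2 ratio of the members was 0.04 in PC3, against -0.05 for all genes, and 0.07 in DU145, against -0.02 for all genes. Scaling each array to its median instead of its 75th percentile moved the median of all genes in PC3 by -0.10, and the members' median to -0.07, so the sign of the PC3 median rests on the scaling. With that scaling 25 members were higher and 31 lower in PC3-shESS2.

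The spread of the members was narrower than that of all genes at its upper end. The median size of the log2 ratio was 0.23 in PC3 for the members and 0.27 for all genes, and the 90th percentile of the size was 0.55 and 0.88. In DU145 the medians were 0.22 and 0.23 and the 90th percentiles 0.60 and 0.74. Most members were bright: 54 of the 58 had a representing probe well above background on all 4 arrays. For all genes that exceeded background in both conditions of a line, the 90th percentile was 0.82 in PC3 and 0.67 in DU145, and 6.65% and 3.44% of them were past 2-fold.

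**Figure D1:**
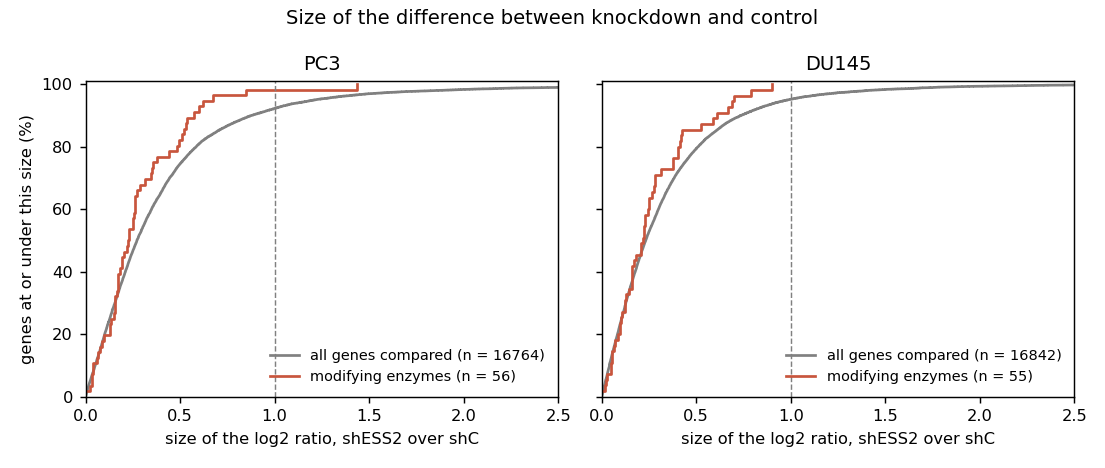
Cumulative share of genes (y axis, percent) at or under each size of the log2 ratio of shESS2 over shC (x axis), for the modifying enzymes and for all genes compared, in PC3 and DU145, with 2-fold as a dashed line. The enzyme curve runs above that of all genes at larger sizes, with 90th percentiles of 0.55 against 0.88 in PC3 and 0.60 against 0.74 in DU145.

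At a lower threshold of 1.5-fold, 4 members were higher in PC3-shESS2 (KDM7A, KMT2C, SIRT4 and KAT2B) and 1 was lower (HDAC10), together 8.93% of the 56, where 20.0% of all genes were past it, 10.1% higher and 9.98% lower. With median scaling 2 were higher (KDM7A and KMT2C) and 4 lower (HDAC10, HDAC5, BRD3 and KAT8), where 7.86% of all genes were higher and 13.8% lower. With the authors' scaled values 6 were higher and 0 lower, where 12.6% of all genes were higher and 7.80% lower. The split in PC3 therefore rests on the scaling, for the members and for all genes. In DU145-shESS2, 7 members were higher (TET1, HDAC5, HDAC11, KDM4B, SIRT2, CREBBP and KDM6B) and 0 were lower, 12.7% of the 55, where 15.8% of all genes were past it, 7.18% higher and 8.63% lower. With normexp background correction 3 remained past it in DU145 (HDAC5, KDM4B and TET1), 5.45%, where 3.22% of all genes were higher and 2.85% lower. In PC3, 2 remained (KDM7A and KMT2C), 3.57%, where 4.89% of all genes were higher and 5.49% lower. By the probe that stands for each gene and the main scaling, no member was past 1.5-fold in both lines, where 1.44% of all genes were higher in both, 1.61% lower in both and 1.60% opposite. With the mean of all probes of a gene HDAC11 was higher in both, at 0.69 in PC3 and 0.61 in DU145, and with median scaling HDAC5 was past it in opposite directions. Erasers had a median log2 ratio of 0.16 in PC3, with 20 higher and 11 lower (0.05 and 17 higher with median scaling, 0.24 and 22 higher with the authors' scaled values), and of 0.12 in DU145, with 17 higher and 12 lower. Writers had a median of -0.07 in PC3, with 8 higher and 15 lower, and of 0.05 in DU145, with 13 higher and 11 lower. Over all genes, 7429 of 16764 were higher in PC3-shESS2 and 7953 of 16842 in DU145-shESS2. The sign of the writers' median in PC3 changed with the scaling, from -0.17 with median scaling to 0.03 with the authors' scaled values.

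**Figure D2:**
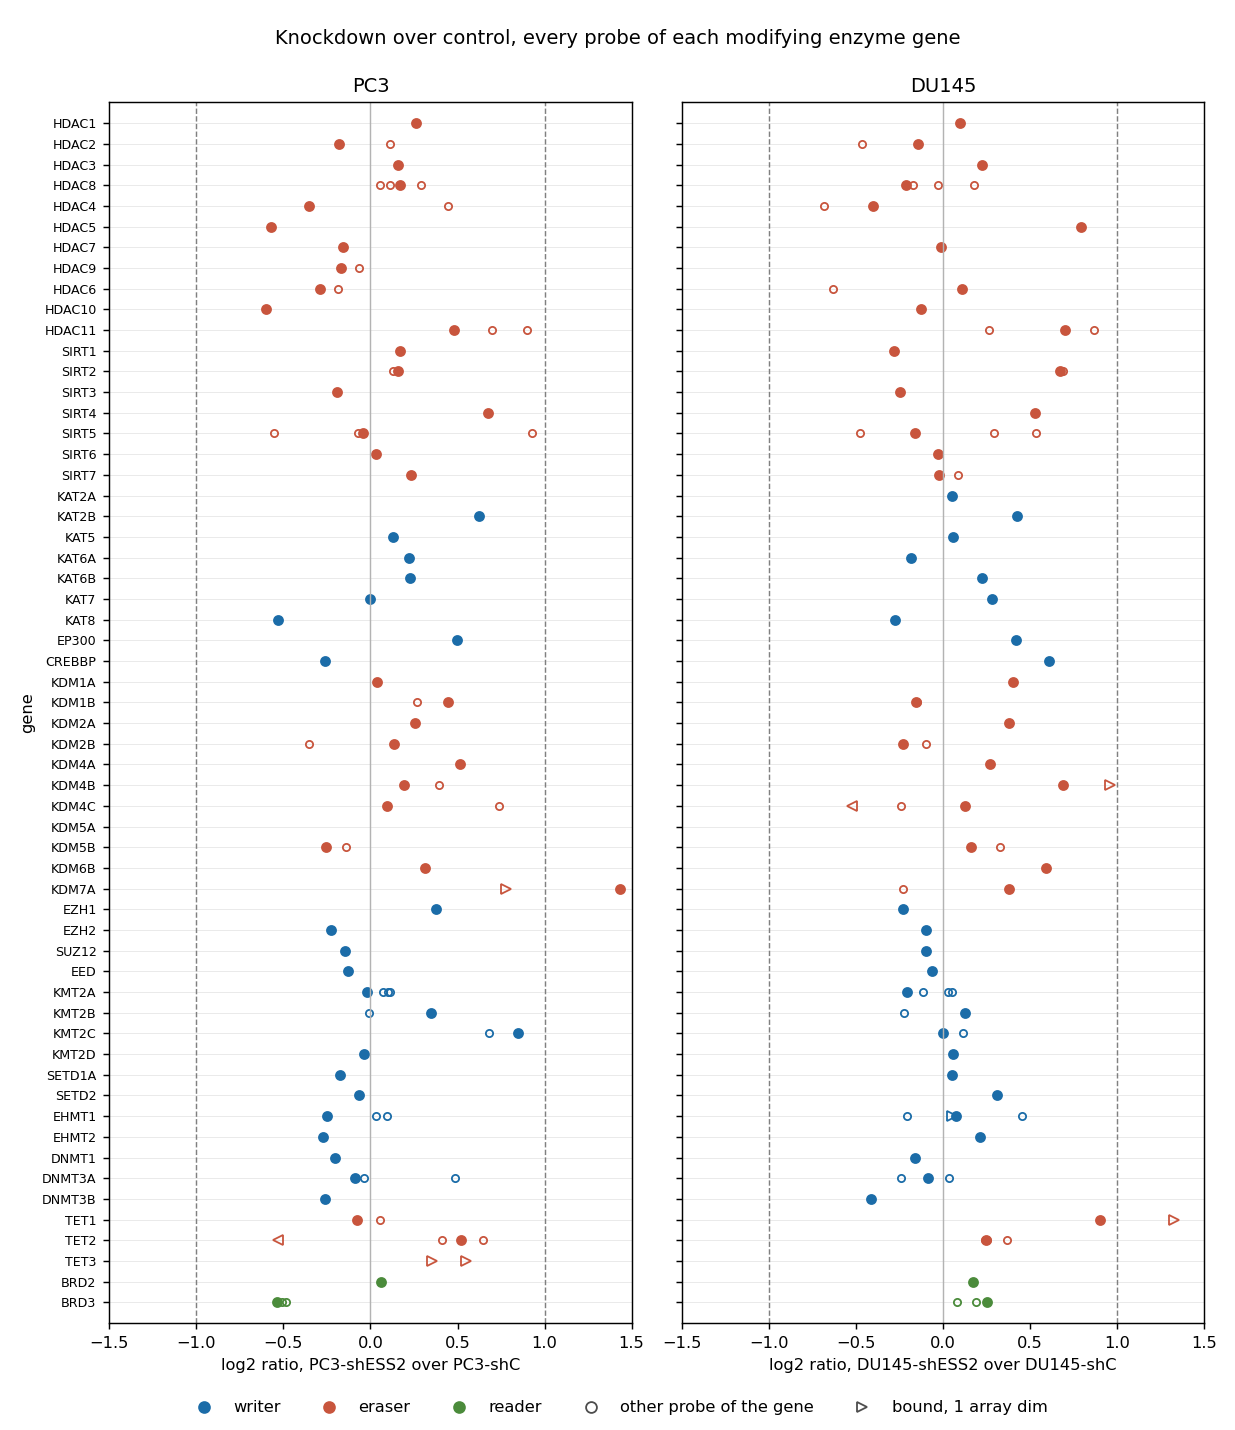
Log2 ratio of shESS2 over shC (x axis) for every measured probe of each modifying enzyme gene (y axis) in PC3 and DU145. Filled points are the probe that stands for the gene, open circles its other probes, triangles bounds where 1 array was not well above background, and dashed lines 2-fold; KDM7A at 1.44 in PC3 is the filled point past them.

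Class I HDACs are nuclear deacetylases that work in corepressor complexes. HDAC1 stood at 5.09 in PC3-shC, 5.35 in PC3-shESS2, 4.42 in DU145-shC and 4.51 in DU145-shESS2 cells, and HDAC3 at 4.31 in PC3-shC, 4.46 in PC3-shESS2, 3.61 in DU145-shC and 3.83 in DU145-shESS2 cells. Both were slightly higher in shESS2 cells of both lines, with log2 ratios from 0.10 to 0.26. HDAC2, the close paralog of HDAC1, stood at 4.73 in PC3-shC, 4.55 in PC3-shESS2, 3.95 in DU145-shC and 3.80 in DU145-shESS2 cells, slightly lower in both, while its dimmer second probe gave 0.11 in PC3 and -0.47 in DU145. HDAC8 stood at 0.80 in PC3-shC, 0.97 in PC3-shESS2, -0.08 in DU145-shC and -0.30 in DU145-shESS2 cells. Its 4 probes ranged from 0.05 to 0.29 in PC3 and from -0.22 to 0.18 in DU145, so the DU145 direction differed by probe.

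Class IIa HDACs shuttle between nucleus and cytoplasm and have weak deacetylase activity of their own. All 4 were lower in PC3-shESS2 than in PC3-shC cells, with a median log2 ratio of -0.26, where 9322 of 16764 genes were lower. The 4 were lower under each of the scalings tried. HDAC5 differed most and in opposite directions in the lines. Its level was -1.08 in PC3-shC and -1.66 in PC3-shESS2 cells, a log2 ratio of -0.57, and 1.61 in DU145-shC and 2.40 in DU145-shESS2 cells, a log2 ratio of 0.79. HDAC4, known for its role in muscle and bone, stood at 1.13 in PC3-shC, 0.77 in PC3-shESS2, 1.52 in DU145-shC and 1.12 in DU145-shESS2 cells, lower in both lines, although its second, dim probe gave 0.44 in PC3 and -0.68 in DU145, and the mean of its probes gave 0.04 in PC3. HDAC7, abundant in endothelium and thymocytes, stood at 1.87 in PC3-shC, 1.71 in PC3-shESS2, 1.11 in DU145-shC and 1.10 in DU145-shESS2 cells. HDAC9 was measured in PC3 alone, at -2.33 in PC3-shC and -2.50 in PC3-shESS2 cells, and was not well above background on either DU145 array with any of its 3 probes.

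Class IIb holds HDAC6, a cytoplasmic tubulin deacetylase, and HDAC10, a polyamine deacetylase, and HDAC11 is the sole class IV enzyme. HDAC11 was higher in shESS2 cells of both lines. It stood at -0.94 in PC3-shC, -0.46 in PC3-shESS2, -2.81 in DU145-shC and -2.11 in DU145-shESS2 cells, log2 ratios of 0.48 in PC3 and 0.70 in DU145, and each of its 3 probes was higher in both lines, from 0.48 to 0.90 in PC3 and from 0.26 to 0.86 in DU145. HDAC10 had the lowest log2 ratio of the members in PC3. It stood at -1.56 in PC3-shC and -2.16 in PC3-shESS2 cells, a log2 ratio of -0.60, and stood at -1.22 in DU145-shC and -1.35 in DU145-shESS2 cells, a log2 ratio of -0.13. HDAC6 gave -0.29 in PC3 and 0.11 in DU145, and its second probe gave -0.19 and -0.63.

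Sirtuins are NAD-dependent deacylases, SIRT1, SIRT6 and SIRT7 in the nucleus, SIRT2 mainly in the cytoplasm and SIRT3, SIRT4 and SIRT5 in mitochondria. SIRT4, which has deacylase and ADP-ribosyltransferase activity, was higher in both lines. It stood at -2.63 in PC3-shC, -1.96 in PC3-shESS2, -0.72 in DU145-shC and -0.19 in DU145-shESS2 cells, log2 ratios of 0.68 in PC3 and 0.53 in DU145. SIRT2, a tubulin and histone H4K16 deacetylase, stood at 0.41 in PC3-shC, 0.56 in PC3-shESS2, -1.03 in DU145-shC and -0.36 in DU145-shESS2 cells, and its 2 probes agreed, 0.13 and 0.16 in PC3 and 0.67 and 0.69 in DU145. SIRT3, the main mitochondrial deacetylase, stood at 2.88 in PC3-shC, 2.68 in PC3-shESS2, 2.11 in DU145-shC and 1.86 in DU145-shESS2 cells, slightly lower in both lines. SIRT1, which also acts on transcription factors, stood at 0.34 in PC3-shC, 0.51 in PC3-shESS2, 1.32 in DU145-shC and 1.04 in DU145-shESS2 cells, higher in PC3-shESS2 and lower in DU145-shESS2. SIRT6 and SIRT7 had log2 ratios between -0.03 and 0.23. SIRT5, a desuccinylase, stood at 2.79 in PC3-shC, 2.75 in PC3-shESS2, 0.66 in DU145-shC and 0.50 in DU145-shESS2 cells by its brightest probe, but its 4 probes ran from -0.55 to 0.93 in PC3 and from -0.48 to 0.54 in DU145. No direction can be given for SIRT5 as a gene from these probes.

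Acetyltransferases deposit the acetyl groups that the enzymes above remove. Of the 9, 5 were higher and 3 lower in PC3-shESS2, where KAT2A could not be compared, and 7 were higher and 2 lower in DU145-shESS2, with medians of 0.17 and 0.22. Over all genes, 7429 of 16764 were higher in PC3-shESS2 and 7953 of 16842 in DU145-shESS2. KAT2B (PCAF), a histone H3 acetyltransferase, was higher in both lines. It stood at -1.03 in PC3-shC, -0.41 in PC3-shESS2, 0.11 in DU145-shC and 0.54 in DU145-shESS2 cells, log2 ratios of 0.62 in PC3 and 0.42 in DU145. EP300, a coactivator that acetylates H3K27 at enhancers, was also higher in both, at -0.43 in PC3-shC, 0.06 in PC3-shESS2, -0.22 in DU145-shC and 0.20 in DU145-shESS2 cells. Its paralog CREBBP stood at 0.37 in PC3-shC, 0.11 in PC3-shESS2, 1.46 in DU145-shC and 2.07 in DU145-shESS2 cells, log2 ratios of -0.26 in PC3 and 0.61 in DU145. KAT8 (MOF), which acetylates H4K16, was lower in both, at 3.06 in PC3-shC, 2.53 in PC3-shESS2, 3.37 in DU145-shC and 3.09 in DU145-shESS2 cells. The MYST family enzymes KAT5, KAT6A, KAT6B and KAT7 had log2 ratios between -0.18 and 0.28, with KAT6B at 0.23 in PC3 and 0.22 in DU145. KAT2A (GCN5), the paralog of KAT2B, was not above background in PC3 and differed in DU145 by less than the spot SD, at 3.92 in DU145-shC and 3.98 in DU145-shESS2 cells.

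Histone demethylases remove methyl groups from lysine. Of the 10 in the list that could be compared, 9 were higher in PC3-shESS2 and 8 in DU145-shESS2, with medians of 0.22 and 0.32, where 7429 of 16764 genes were higher in PC3-shESS2 and 7953 of 16842 in DU145-shESS2. With median scaling 7 of 10 were higher in PC3 and the median was 0.12. Of 10 demethylases outside the list, 5 were higher in PC3-shESS2 and 9 in DU145-shESS2, with medians of 0.02 and 0.16. KDM7A, which removes methyl groups from H3K9 and H3K27, was the one member past 2-fold. It stood at -1.96 in PC3-shC and -0.53 in PC3-shESS2 cells, 2.70-fold higher, and at -0.08 in DU145-shC and 0.30 in DU145-shESS2 cells, a log2 ratio of 0.37. The 2.70-fold difference rests on the brighter of its 2 probes. The dimmer probe did not reach well above background with PC3-shC RNA, which gives a log2 ratio of at least 0.78 in PC3, and it was lower in DU145-shESS2, with a log2 ratio of -0.23. With normexp background correction the KDM7A log2 ratio in PC3 was 0.97, under 2-fold.

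The other demethylases showed smaller differences than KDM7A in PC3, whereas in DU145 KDM4B, KDM6B and KDM1A differed more than KDM7A. KDM4B, an H3K9 and H3K36 demethylase, stood at 4.13 in PC3-shC, 4.32 in PC3-shESS2, 2.95 in DU145-shC and 3.64 in DU145-shESS2 cells, log2 ratios of 0.19 in PC3 and 0.69 in DU145. KDM6B (JMJD3), which acts on H3K27, had log2 ratios of 0.31 in PC3 and 0.59 in DU145, and KDM4A, of the same family as KDM4B, of 0.51 in PC3 and 0.27 in DU145. KDM5B, an H3K4 demethylase, was the one that was lower in PC3-shESS2, at 1.97 in PC3-shC, 1.72 in PC3-shESS2, 2.72 in DU145-shC and 2.88 in DU145-shESS2 cells. KDM2B, which recruits a Polycomb complex to CpG-rich DNA, stood at -0.89 in PC3-shC, -0.75 in PC3-shESS2, -0.97 in DU145-shC and -1.20 in DU145-shESS2 cells, and its second probe gave -0.36 in PC3, opposite to the first. KDM1A (LSD1), KDM1B, KDM2A and KDM4C had log2 ratios between -0.16 and 0.44. KDM5A was not well above background on any array and gave no value.

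PRC2 is the Polycomb complex that methylates H3K27. EZH2, its main catalytic subunit, stood at 3.31 in PC3-shC, 3.08 in PC3-shESS2, 3.04 in DU145-shC and 2.94 in DU145-shESS2 cells, and EED, which binds the mark, at 4.32 in PC3-shC, 4.19 in PC3-shESS2, 3.85 in DU145-shC and 3.78 in DU145-shESS2 cells. Together with the core subunit SUZ12 these were lower in both knockdowns, with log2 ratios between -0.23 and -0.06, where 33.3% of all genes were lower in both. The direction of the 3 was the same under each scaling tried. In DU145 the EED difference was less than the spot SD, and those of EZH2 and SUZ12, at -0.10 each, were little more than it. EZH1, the catalytic paralog of EZH2, stood at -0.73 in PC3-shC, -0.35 in PC3-shESS2, 1.44 in DU145-shC and 1.21 in DU145-shESS2 cells, higher in PC3-shESS2 and lower in DU145-shESS2.

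Of the H3K4 methyltransferases, KMT2C differed most, in PC3. KMT2C (MLL3), which methylates H3K4 at enhancers, stood at 1.86 in PC3-shC, 2.70 in PC3-shESS2, 1.81 in DU145-shC and 1.81 in DU145-shESS2 cells. Its log2 ratio of 0.85 in PC3 was matched by 0.68 with its second probe, and the DU145 ratios of its probes were 0.00 and 0.12. KMT2A (MLL1) stood at 2.81 in PC3-shC, 2.79 in PC3-shESS2, 3.19 in DU145-shC and 2.98 in DU145-shESS2 cells, KMT2B at 0.91 in PC3-shC, 1.25 in PC3-shESS2, 1.05 in DU145-shC and 1.18 in DU145-shESS2 cells and SETD1A at 3.41 in PC3-shC, 3.24 in PC3-shESS2, 3.89 in DU145-shC and 3.94 in DU145-shESS2 cells. The ratios of KMT2A, KMT2B, KMT2D and SETD1A lay between -0.21 and 0.35, and the sign of the group's median in PC3 changed with the scaling.

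SETD2, the enzyme of H3K36 trimethylation, stood at 0.18 in PC3-shC, 0.11 in PC3-shESS2, -0.38 in DU145-shC and -0.07 in DU145-shESS2 cells, log2 ratios of -0.07 in PC3 and 0.31 in DU145. EHMT1 (GLP) and EHMT2 (G9a), which form a complex that dimethylates H3K9, stood at 2.08 in PC3-shC, 1.83 in PC3-shESS2, 1.90 in DU145-shC and 1.97 in DU145-shESS2 cells and at 1.79 in PC3-shC, 1.52 in PC3-shESS2, 1.07 in DU145-shC and 1.28 in DU145-shESS2 cells, respectively. By the brightest probe of each, these 3 enzymes were lower in PC3-shESS2, with a median of -0.25, and higher in DU145-shESS2, with a median of 0.21. Over all genes, 9322 of 16764 were lower in PC3-shESS2 and 7953 of 16842 were higher in DU145-shESS2. In PC3, 1 of the 3 enzymes was higher with the authors' scaled values. The other EHMT1 probes gave 0.03 and 0.09 in PC3, against -0.25 for the brightest, and -0.21 and 0.45 in DU145, against 0.07. With the mean of all its probes EHMT1 was at 0.25 in PC3, so no direction can be given for EHMT1 as a gene.

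By the probe that stands for each gene, the 3 DNA methyltransferases were lower in both knockdowns, with medians of -0.20 in PC3 and -0.16 in DU145, where 33.3% of all genes were lower in both. An exception was DNMT3A in PC3, at 0.00 with the authors' scaled values and at 0.12 with the mean of all its probes. No direction can therefore be given for DNMT3A in PC3. DNMT3B, a de novo methyltransferase, differed most, at 1.79 in PC3-shC, 1.52 in PC3-shESS2, 0.40 in DU145-shC and -0.02 in DU145-shESS2 cells, log2 ratios of -0.26 in PC3 and -0.42 in DU145. DNMT1, which copies methylation after replication, gave -0.20 in PC3 and -0.16 in DU145. DNMT3A, the other de novo enzyme, stood at 0.35 in PC3-shC, 0.26 in PC3-shESS2, 1.53 in DU145-shC and 1.44 in DU145-shESS2 cells, and a dim probe to another of its transcripts gave 0.48 in PC3.

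Of the TET enzymes, TET1 differed most in DU145. It stood at 0.09 in PC3-shC and 0.01 in PC3-shESS2 cells, a log2 ratio of -0.08, and at 1.58 in DU145-shC and 2.48 in DU145-shESS2 cells, a log2 ratio of 0.90. Its second probe was not well above background in DU145-shC cells and gave a log2 ratio of at least 1.33 in DU145, so both probes were higher there. TET2 stood at -0.42 in PC3-shC, 0.10 in PC3-shESS2, -0.79 in DU145-shC and -0.54 in DU145-shESS2 cells, log2 ratios of 0.52 in PC3 and 0.25 in DU145. In DU145 its 4 probes ran from 0.24 to 0.36, and in PC3 the 3 measured on both arrays ran from 0.41 to 0.64 while a dim probe to another transcript gave a log2 ratio of at most -0.53. TET3 was above background on the PC3-shESS2 array alone and was at least 1.28-fold higher there than in PC3-shC cells.

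The readers BRD2 and BRD3 belong to the BET family, whose bromodomains bind acetylated histone H4. BRD2 stood at 5.73 in PC3-shC, 5.79 in PC3-shESS2, 6.06 in DU145-shC and 6.22 in DU145-shESS2 cells, and did not differ beyond 0.17 in either line. BRD3 stood at 1.94 in PC3-shC, 1.41 in PC3-shESS2, 2.35 in DU145-shC and 2.60 in DU145-shESS2 cells, with a log2 ratio of -0.54 in PC3 and 0.25 in DU145. Its 3 probes agreed in direction, from -0.54 to -0.48 in PC3 and from 0.08 to 0.25 in DU145.

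The 2 lines were the only repeat of the knockdown, so both were fitted together by limma, which took the line as a block, with Benjamini-Hochberg adjustment over 17126 genes. At an adjusted p of 0.05, 0 of 56 members and 0 of all genes passed, a background of 0%. At an unadjusted p of 0.05, 3 of the 56 members passed, a share near the 6.11% of all genes that did. They were HDAC11, with a coefficient of 0.59 ± 0.19 (log2, ± SE), SIRT4, with 0.60 ± 0.18, and KAT2B, with 0.52 ± 0.18, each higher in both lines. With normexp background correction their log2 ratios were smaller, HDAC11 at 0.19 in PC3 and 0.29 in DU145, SIRT4 at 0.27 and 0.43 and KAT2B at 0.42 and 0.33. KDM7A had 0.91 ± 0.32, from log2 ratios of 1.44 in PC3 and 0.37 in DU145. The smallest adjusted p of a member was 0.75 (limma). The fit had 1 residual degree of freedom and 2.83 from the prior.

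Of the 54 members compared in both lines, 19 were higher in both knockdowns (35.2%), 14 were lower in both (25.9%) and 21 went in opposite directions (38.9%). Over 15478 genes the shares were 23.7%, 33.3% and 42.9%. With a minimum log2 ratio of 0.25 in each line, 8 members were higher in both, 3 were lower in both and 2 were opposite, 14.8%, 5.56% and 3.70%, where the shares of all genes were 7.27%, 9.41% and 9.75%. Across scalings 25 members were higher and 20 lower in PC3 under all 4, and 32 were higher and 19 lower in DU145. The remaining 11 in PC3 and 4 in DU145 changed sign with the scaling, among them DNMT3A, TET1 and SETD2 in PC3.

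The levels of the modifying enzymes were also compared between PC3 and DU145 cells, over both shRNAs. In the same limma fit, 31 of 56 members passed an adjusted p of 0.05, 17 higher in PC3 and 14 higher in DU145, where 52.3% of all genes passed, 28.5% higher and 23.8% lower in PC3. The share of the members was near that background. Of those that passed, 8 were past 2-fold higher in PC3 and 11 past 2-fold lower, where 39.6% of all genes both passed and were past 2-fold. The 2 arrays of a line shared a slide, a scan and a software version, so line and slide cannot be told apart, and the 2 arrays of each line differ in the shRNA.

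Among acetylation enzymes, PC3 cells had more HDAC9 and DU145 cells more KAT2A and HDAC5. KAT2A was not well above background in PC3 and was at least 475-fold higher in DU145. HDAC5 was lower in PC3 by a limma coefficient of -3.38 ± 0.39 (log2, ± SE, adjusted p = 0.00692). HDAC9 was at least 4.79-fold higher in PC3. KAT2A and HDAC9 entered the fit only through the line where they were high. Their levels in the other line were raised to the lowest signal well above background, so no p is given for them, although both count among the members that passed. HDAC11 (1.76 ± 0.19), KAT6B (1.66 ± 0.18), SIRT2 (1.18 ± 0.22) and HDAC8 (1.07 ± 0.20) were higher in PC3. SIRT4 (-1.84 ± 0.18), CREBBP (-1.53 ± 0.28) and KAT2B (-1.04 ± 0.18) were higher in DU145. The 4 class I HDACs were each higher in PC3, from 0.66 ± 0.18 for HDAC3 to the value of HDAC8.

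Among methylation enzymes, DNMT3B (1.47 ± 0.18) and KDM1A (1.03 ± 0.20) were higher in PC3. EZH1 (-1.86 ± 0.24), KDM7A (-1.36 ± 0.32), KDM6B (-1.22 ± 0.19), DNMT3A (-1.18 ± 0.18) and KMT2D (-1.02 ± 0.18) were higher in DU145. The representing probes of the de novo methyltransferases differed in opposite directions between the lines, DNMT3A by -1.18 ± 0.18 and DNMT3B by 1.47 ± 0.18, with limma adjusted p-values of 0.0117 and 0.00786. EZH2, SUZ12, EED, KMT2A, KMT2B, SETD2, EHMT1 and EHMT2 did not pass, with coefficients between -0.28 and 0.48.

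The fit used 1 probe per gene, and with it SIRT5 (2.19 ± 0.18) and TET1 (-1.98 ± 0.31) passed as well. Of the members that passed, 13 had more than 1 probe that was well above background on at least 2 arrays, and in 10 of these all such probes lay on the same side. The exceptions were SIRT5, TET1 and DNMT3A. The 4 SIRT5 probes gave PC3 minus DU145 differences from -2.01 to 2.19 on the log2 scale, of which the dimmest probe gave the lowest and the other three were above 0. The second TET1 probe gave 0.81, against -1.98 for the brighter one, and the 3 DNMT3A probes gave -1.86, -1.18 and 0.03. No direction between the lines can be given for SIRT5 and TET1 as genes from these probes.

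**Figure D3:**
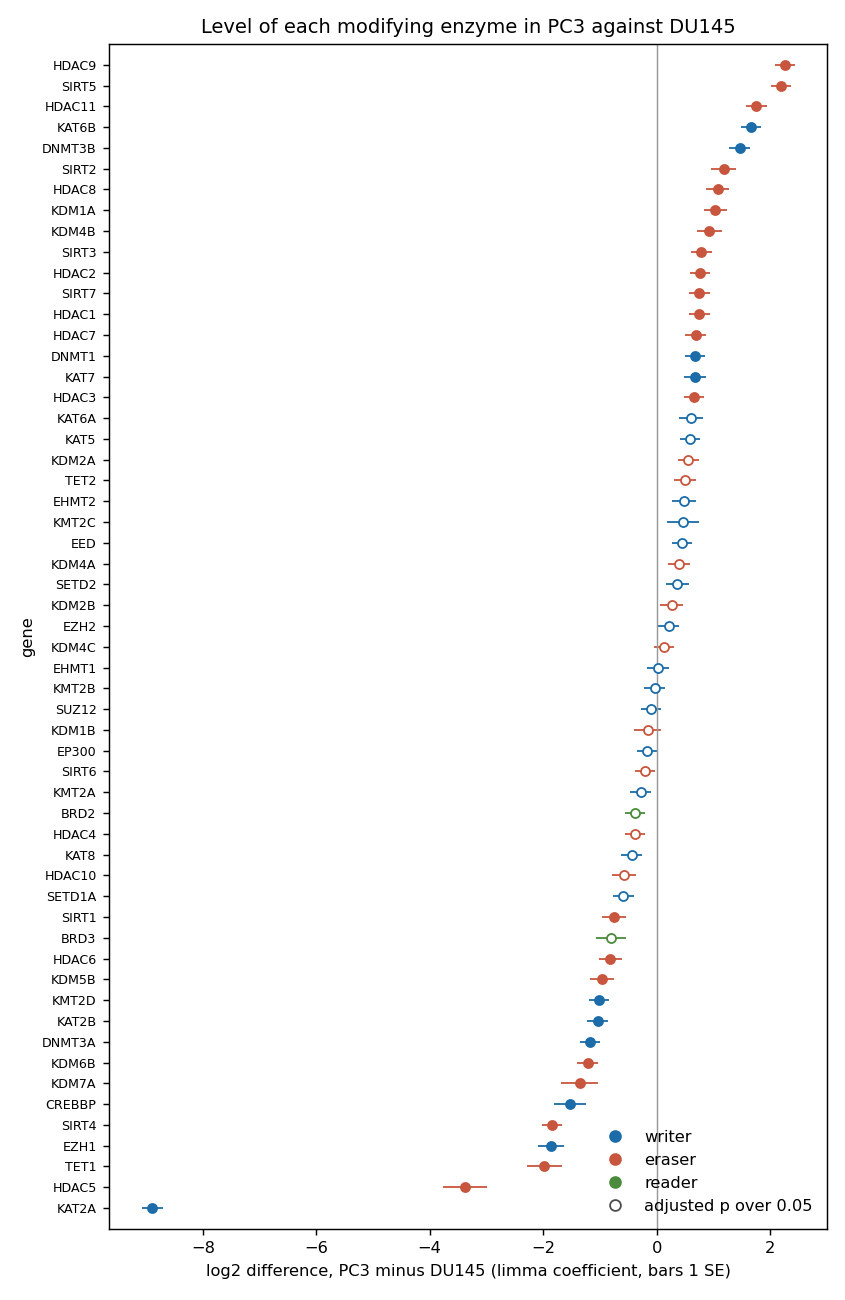
Limma coefficient of PC3 minus DU145 (x axis, log2, bars 1 SE) for the 56 tested modifying enzymes (y axis), coloured by role, filled where the adjusted p was at or under 0.05. KAT2A at -8.89 is plotted at its bound and lies beyond the other genes plotted, and HDAC9 at 2.26, also at its bound, is at the other end.

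The genes next to KAT2A on chromosome 17 were looked at after its value was seen. From DHX58 through KAT2A to STAT3, 10 protein-coding genes in a row, measured by 11 probes, did not reach well above background in PC3-shC or PC3-shESS2 cells. On the DU145 arrays 8 of the 10 were well above background on both, HCRT on 1 and KCNH4 on neither. STAT3, a cytokine-activated transcription factor, stood at -4.89 and -6.20 on the PC3 arrays and 0.50 and 1.02 on the DU145 arrays. STAT5B, of the same family, stood at -7.18 and -7.29 in PC3 and at 2.09 and 1.70 in DU145. The genes on either side, C17orf113 and CAVIN1, were well above background on all 4 arrays, CAVIN1 by 1 of its 2 probes in PC3. The next gene, ATP6V0A1, stood at -3.60 and -4.83 in PC3, the latter not well above background, and at 4.30 and 4.46 in DU145. Over all genes, 874 of the 15933 well above background on both DU145 arrays (5.49%) were above it on neither PC3 array.

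**Figure D4:**
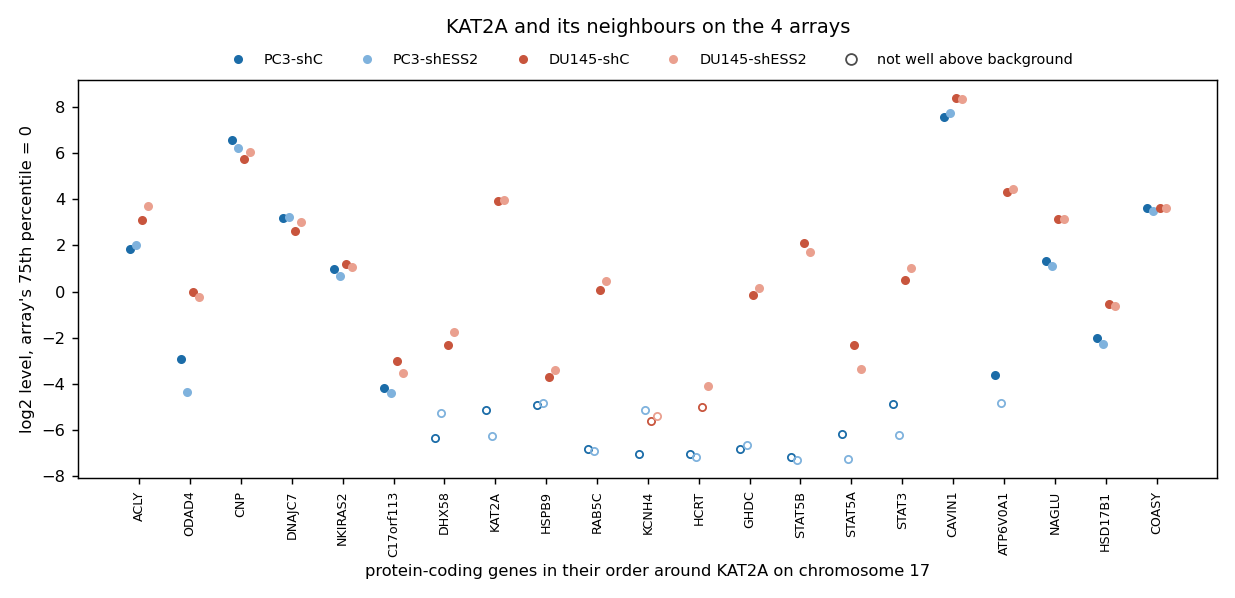
Log2 level on the 4 arrays (y axis, 0 is the array's 75th percentile) of KAT2A and its protein-coding neighbours in gene order on chromosome 17 (x axis), open points not well above background. From DHX58 to STAT3 both PC3 arrays have open points, while 8 of these 10 genes have filled points on both DU145 arrays; levels of different genes are not comparable.

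The list was set beside 86 other chromatin modifiers, such as arginine methyltransferases, bromodomain proteins and corepressor subunits. In PC3, 85 were compared and 1 was past 2-fold, PRMT2, with a median log2 ratio of -0.08. In DU145, 86 were compared and 1 was past 2-fold, KDM3A, with a median of 0.05. None was past 2-fold in both lines. KDM3A, an H3K9 demethylase, stood at -0.54 in PC3-shC, 0.09 in PC3-shESS2, -2.41 in DU145-shC and -1.38 in DU145-shESS2 cells, log2 ratios of 0.63 and 1.04. The limma fit over both lines called 0 of the 86, and 2 had an unadjusted p at or under 0.05.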

How the data were processed

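RNA of the 4 cell populations was hybridised to Agilent one-colour arrays. The deposited scanner files hold intensity values that the authors' service provider extracted with Agilent Feature Extraction 12.0.3.1 (PC3) and 12.1.0.3 (DU145), background-subtracted and not scaled between arrays. The authors' value table, also intensity, equals the processed signal multiplied by 1 constant per array (medians 3.65, 3.52, 6.17 and 6.09), with column medians of 41.6, 47.5, 77.6 and 77.3; how the constants were chosen is not given in the sources used here, and it was used as an alternative only. Its direction and lack of gene centring followed from that match.

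Control spots and outlier flags were left out, the 58201 probes were averaged over spots, and log2 values were taken relative to each array's 75th percentile (signal 263, 290, 212 and 218). Of these probes 35080 were named by RefSeq symbols through their accessions, newer annotation release first, giving 25122 genes, 1 of them without a value. The probe with the highest mean stands for a gene. A gene was compared in a line where at least 1 array flagged it as well above background, and dim values were raised to the lowest signal well above background, so such ratios are bounds ("at least"). No p was given within a line. limma 3.58.1 in R 4.3.3 (lmFit, eBayes) fitted line and shRNA to genes well above background on 2 or more arrays. Where nothing says the arrays came from separate cultures, p-values measure only the spread between these samples. Python 3.11.15, numpy 2.4.6 and pandas 2.3.3 were used otherwise, and the steps were tested on simulated data. The number of arrays limits the precision.

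The members, the marker and modifier lists and the named genes were chosen with earlier results of these data known. Named with all 4 levels were members past 2-fold, the highest and the lowest member of each role group in each line, and members whose probes differed by over 1 on the log2 scale. KAT2A, EP300 and HDAC9 were added after their values were seen. Alternatives were other scalings, background correction, filters, probe choice, annotation release and model terms; the 1.5-fold threshold and the neighbours of KAT2A were chosen after seeing the data. CD68 was not matched. Some genes of the marker list are not reported here. The sequences come from RefSeq promoter tables.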

Additional observations from a re-analysis of the deposited data

Results flagged for a closer look

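In 7 of the genes the log2 ratio of shESS2 over shC had opposite signs in the 2 lines, with the main scaling each time by more than 2 spot SDs and with no measured probe on the other side, which leaves out HDAC8, where 1 of 4 probes was. BRD3 had 3 probes, which agreed, and the others had 1 probe each. By the probe that stands for each gene, opposite signs past 2 spot SDs were found in 8 of 54 members (14.8%) and in 16.0% of all genes, so the share of the members was near that of all genes. The difference between the lines was not tested, since each line has 1 array per condition. HDAC5 had -0.57 in PC3 and 0.79 in DU145. CREBBP had -0.26 in PC3 and 0.61 in DU145, and BRD3 had -0.54 in PC3 and 0.25 in DU145. EZH1 had 0.38 in PC3 and -0.23 in DU145, and EHMT2 had -0.27 in PC3 and 0.21 in DU145. SIRT1 had 0.17 in PC3 and -0.28 in DU145 (0.066 in PC3 with median scaling, within 1 spot SD). KAT6A had 0.22 in PC3 and -0.18 in DU145, and with median scaling its PC3 value was under 2 spot SDs. HDAC5, CREBBP, EZH1 and SIRT1, 4 of the 7, were also among the members that limma called between the lines, where 52.3% of all genes were called. All 4 were higher in DU145.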

How the results depend on the processing

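The knockdown fit called 0 members under every alternative run, and the smallest adjusted p of a member lay between 0.053 without a filter on dim probes and a value close to 1 without the line as a block. At an unadjusted p of 0.05, the members that passed ran from 0 of 56 without that block to 15 of 58 without that filter. The share of all genes was not taken for these. The count past 2-fold in PC3 was 0 with normexp background correction, which left KDM7A at 0.97, and 1 under the other alternatives at that threshold. With a 1.5-fold threshold, chosen after seeing the data, the counts were 5 in PC3 and 7 in DU145. Its PC3 split of 4 higher and 1 lower became 2 and 4 with median scaling, 6 and 0 with the authors' scaled values and 2 and 0 with normexp, which left 3 higher in DU145. The shares of all genes past 1.5-fold, given above with these counts, moved as well. In DU145 the count was 1 when all probes of a gene were averaged, through TET1 at 1.14, and 0 under the others. The median of the members in PC3 was -0.066 with median scaling and 0.13 with the authors' scaled values, where 36 were higher and 20 lower. Over all genes, normexp left 571 past 2-fold in PC3 against 1299, and 216 in DU145 against 813, of which 139 were higher and 77 lower against 397 and 416. Median scaling split the PC3 genes past 2-fold into 511 higher and 803 lower against 650 and 649. Without a filter on dim probes the median of all genes in DU145 moved by -0.11. Members called between the lines numbered 22 to 36 under the alternatives, against 31, where 48.6% to 58.3% of all genes were called, against 52.3%. Without a filter on dim probes 22 of 58 members were called beside 51.0% of all genes, and with median scaling 36 of 56 beside 58.3%. Besides the KDM7A and TET1 values above, 617 values of single named members moved by less than 1 spot SD and 117 by more, and the cause was not tested.

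The line was the block of the fit over both lines. No paired analysis was possible by replicate number because the labels give none and each condition has 1 array, and leaving out a replicate was not an option. Between 50.8% and 52.6% of spots were well above background; the rest were near it, so KDM5A, TET3, KAT2A in PC3 and HDAC9 in DU145 have a bound or no ratio.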

Other observations

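SIRT5 was the member whose probes differed by over 1 on the log2 scale in both lines. In PC3 its dimmest probe gave 0.93 and another gave -0.55, and in DU145 these gave 0.29 and 0.54, while the 2 others gave -0.48 and -0.16. HDAC4 had a probe to a non-coding transcript at 0.44 in PC3, against -0.35 for its coding transcript, and both were lower in DU145-shESS2. KDM4C gave 0.74 in PC3 with a probe to another transcript and 0.10 with its brightest probe.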
